A study of Mus musculus with 12 samples.

Results

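The genes described here are the mouse genes of mitochondrial protein import, the machinery that brings nuclear-encoded proteins into mitochondria. They were chosen by name: every gene whose symbol starts with Timm or Tomm, together with Samm50, Pam16, Dnajc19, Grpel1, Grpel2, Pmpca, Pmpcb, Mtx1, Mtx2 and Chchd4. The rule gave 37 of the 24533 genes in each deposited table. It goes by name and not by measured differences, but it was set with earlier results of these data known. RNA came from bone marrow of C57BL/6 mice, in 12 libraries that form 4 groups of 3. These were LSK cells labelled U2af1KO, LSK cells labelled WT, LinNeg cells labelled U2af1KO and LinNeg cells labelled WT. LSK cells are the lineage-negative, Sca-1-positive and c-Kit-positive marrow fraction that holds the stem cells, and LinNeg cells are the wider lineage-negative marrow. Per the labels, both populations were depleted of lineage-positive cells on magnetic columns and flow-sorted, and total RNA was freed of ribosomal RNA. The LSK source name carries the letters BMT without spelling them out. The sources used here do not give the ages of the mice, the allele, how the gene was removed or whether the 3 libraries of a group came from separate animals. The p-values thus reflect only how these libraries vary, and that variation may be technical.

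Most mitochondrial proteins are made in the cytosol and enter through TOM, the pore of the outer membrane. From there, beta-barrel proteins go to SAM in the same membrane, small cysteine-rich proteins are folded in the intermembrane space by the product of Chchd4, and metabolite carriers are handed by small TIM chaperones to the TIM22 complex. Proteins with a cleavable presequence pass through the TIM23 complex, are pulled in by a matrix motor and are trimmed by the processing peptidase. In blood formation, red-cell precursors depend on mitochondria for haem synthesis.

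The measurements are the authors' own comparisons of KO with WT libraries within each population. Each gene has a mean of normalized counts over the 6 libraries, a log2 fold change of KO over WT with its standard error (SE), and an adjusted p from DESeq2. A gene is called higher or lower where that adjusted p is under 0.05. Values for single libraries were not used here, so neither the spread nor the overlap of the groups can be shown library by library. Separate KO and WT levels were worked out by splitting each overall mean by its fold change, with 3 libraries per label, and are called derived means, in normalized counts. Of the 37 genes, 34 code for import-related proteins and reached a mean of 10 in both tables. Their means ran between 346 and 7725 normalized counts in the LSK table and between 338 and 5040 in the LinNeg table. The other 3 were Timm8a2 and Tomm20l, with means under 10 in both tables, and Tomm6os, an antisense RNA beside Tomm6 that encodes no import protein.

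U2af1, which encodes the smaller partner in the U2AF splicing factor and reads the 3' splice site, was higher in the libraries labelled KO. Its log2 fold change was 0.61 (SE 0.06, DESeq2 adjusted p = 1.72e-25) in the authors' deposited table for LSK cells and 0.65 (SE 0.19, adjusted p = 0.00293) in that for LinNeg cells. A count over the whole gene does not show what, if any, part of it was removed. The directions given here thus rest on the authors' naming of the comparison. Marker transcripts of several cell types and tissues also differed between KO and WT libraries. In KO libraries the sum of derived means over the erythroid markers was 160689 in LSK cells, against 31682 in WT, and in LinNeg cells it was 143755 in KO libraries, against 27657 in WT. All 15 tested erythroid markers were called higher in LSK cells and 14 of 15 in LinNeg cells, among them Car2 and Tfrc, while the globin genes Hbb-bs and Hbb-bt were listed at 0 in both tables. The neutrophil granule markers summed to 173618 in KO against 62418 in WT LSK cells, and to 6078 in KO against 91693 in WT LinNeg cells. Stem and primitive progenitor markers summed to 17446 in KO against 82365 in WT LSK cells, with 1 of 10 called higher and 8 lower. In LinNeg cells they summed to 5460 in KO against 14112 in WT libraries. There the markers were mixed, with 2 of 10 called higher and 5 lower and a median log2 fold change of -0.16. Monocyte and dendritic markers summed to 9232 in KO against 9869 in WT LSK cells, with 4 of 11 called higher and 3 lower, and to 6762 in KO against 79094 in WT LinNeg cells, with all 11 called lower. Megakaryocyte and platelet markers were called lower for 7 of 7 tested genes in LSK cells and 6 of 8 in LinNeg cells. Neural markers were called higher for 10 of 10 genes in LSK cells, with a sum of 9067 in KO against 4815 in WT libraries, and for 7 of 10 in LinNeg cells, with 41572 in KO against 11002 in WT libraries. All 9 seminal vesicle markers, listed at 0 in LSK cells, were called higher in LinNeg cells, with a sum of 243729 in KO against 373 in WT libraries. Their SEs on the log2 scale were wide, at 1.73 for Svs2 and 1.74 for Svs5. Of the sort markers, Kit had derived means of 14587 in KO against 28724 in WT LSK libraries, and Ly6a, which encodes Sca-1, had 335 in KO against 593 in WT. In LinNeg libraries Ly6a was called higher, at 2784 in KO against 605 in WT, and Kit was not called. Xist, the non-coding RNA of the inactive X chromosome, was higher in KO libraries of both populations (log2 fold change 7.49 in the authors' deposited table for LSK cells and 10.02 in that for LinNeg cells). The Y-linked gene Ddx3y had derived means of 4.99 in KO against 2949 in WT LSK libraries, and of 1255 in KO against 2165 in WT LinNeg libraries, where it was not called. In LSK cells the Xist and Ddx3y differences went with the KO and WT labels, so sex and genotype cannot be told apart there. In LinNeg cells Xist had derived means of 41468 in KO against 40 in WT libraries. Xist thus went with the labels in LinNeg cells too, and sex and genotype are not cleanly separated in them either. The part of all these differences in the results on import genes was not tested. In bulk RNA a change in the share of a cell type and a change in RNA per cell cannot be told apart.

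Import transcripts were higher in KO than in WT libraries in both populations, and none was called lower. In LSK cells 29 of 36 tested genes were called higher, where 32.4% of all tested genes were called higher and 29.2% lower. In LinNeg cells 23 of 36 were called higher, where 22.1% of all tested genes were called higher and 19.3% lower. Import genes are well expressed, and among genes whose mean reached 100 the shares called higher were 40.8% in LSK cells and 24.9% in LinNeg cells. The median log2 fold change over the tested import genes was 0.64 in LSK cells, against 0.04 over all tested genes, and 0.65 in LinNeg cells, against 0.16 over all tested genes. Changes were moderate: called genes lay between 0.31 and 1.17 on the log2 scale in LSK cells, where 11 reached a 2-fold rise, and between 0.47 and 1.59 in LinNeg cells, where 6 did. Over the 34 expressed genes the median SE was 0.09 in LSK cells and 0.21 in LinNeg cells, so the lower number of calls in LinNeg cells does not show fewer changes. When the LSK table was recentred on its 200 genes with the highest means, whose own median was 0.36, 23 genes were called higher and 4 lower (Tomm34, Pmpcb, Grpel2 and Tomm6os). When the LinNeg table was recentred on the median of all its genes, 19 were called higher and 1, Timm10b, lower.

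**Figure D1:**
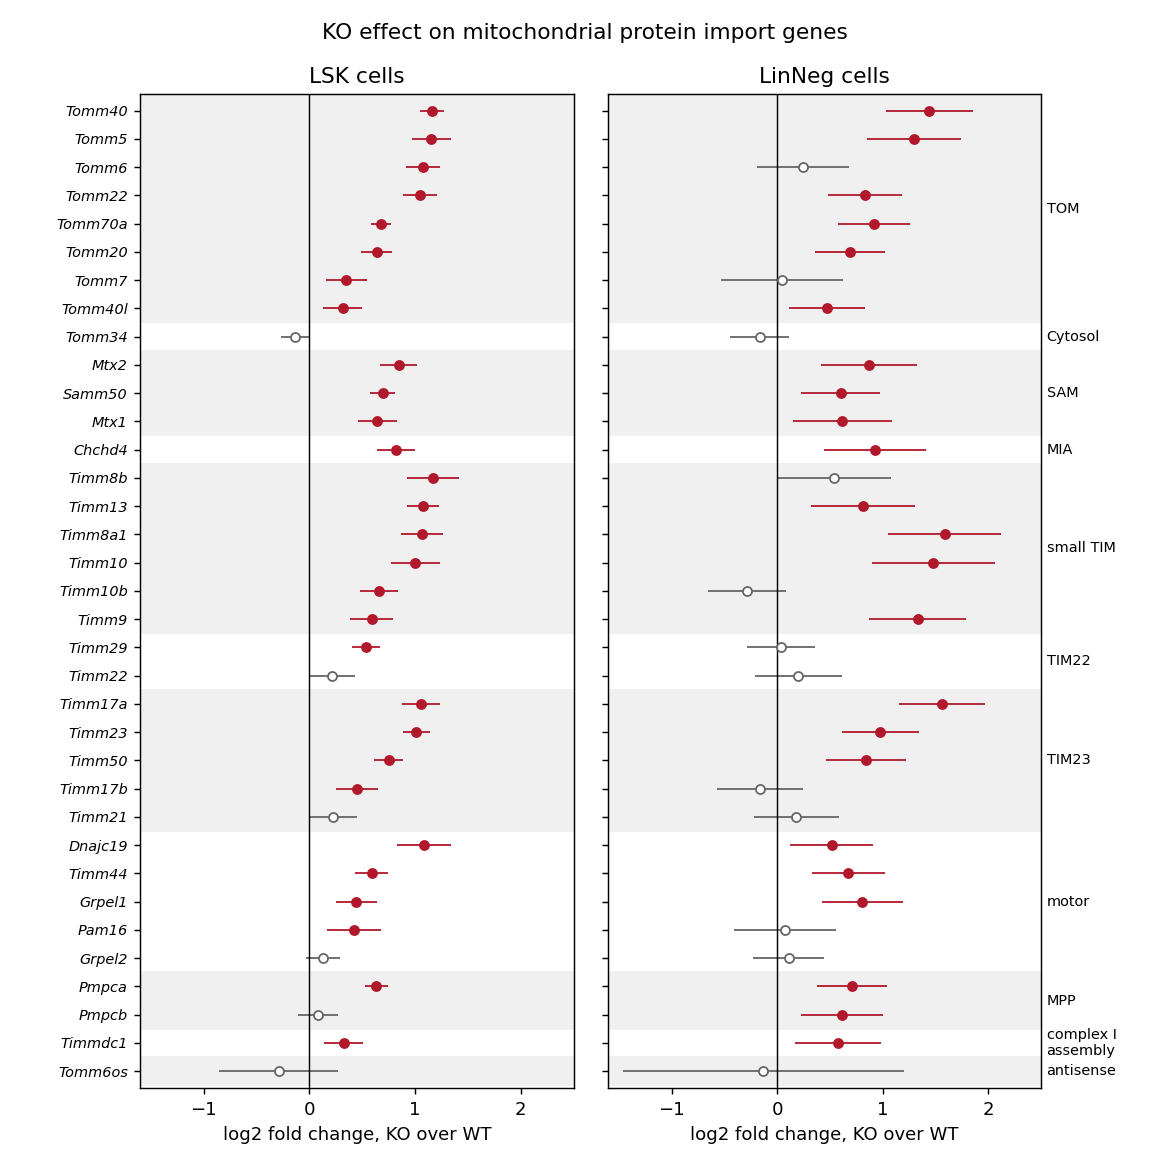
Log2 fold change of KO over WT (horizontal axis) for each import gene, grouped by complex, in LSK and LinNeg cells, from the authors' deposited tables. Points are the estimates and bars their 95% intervals, and filled points have an adjusted p under 0.05. Most points lie right of 0 and no filled point lies left of it; MIA stands for the Chchd4 pathway, MPP for the processing peptidase, and the barely detected Timm8a2 and Tomm20l are not drawn.

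Promoter sequences are shown for genes that moved together and for 1 that did not, because they share a short motif. RefSeq promoters (build GRCm38.p6, 250 bases before to 50 after the start) were found for 33 of the 37 genes, 30 of them among the 34 expressed ones. Grpel2, Timm21, Tomm40l and Tomm7 had no entry. Capitals mark matches, on either strand, to the ETS-family motif CCGGAAG, also bound by the nuclear respiratory factor GABP (NRF2), and to the YY1 motif AAGATGGCG. The Tomm22 window is chr15:79670618-79670917, plus strand. That of Timm10 is chr2:84826771-84827070, plus strand, and that of Timm23 is chr14:32201842-32202141, minus strand. Mtx1 is shown for chr3:89213858-89214157, minus strand, and Tomm34, not called in either population, for chr2:164071053-164071352, minus strand.
Tomm22: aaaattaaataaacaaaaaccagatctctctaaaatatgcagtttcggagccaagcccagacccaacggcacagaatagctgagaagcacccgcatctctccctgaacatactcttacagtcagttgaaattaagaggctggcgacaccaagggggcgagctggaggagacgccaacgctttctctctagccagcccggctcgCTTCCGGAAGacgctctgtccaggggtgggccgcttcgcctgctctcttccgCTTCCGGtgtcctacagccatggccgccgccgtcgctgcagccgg
Timm10: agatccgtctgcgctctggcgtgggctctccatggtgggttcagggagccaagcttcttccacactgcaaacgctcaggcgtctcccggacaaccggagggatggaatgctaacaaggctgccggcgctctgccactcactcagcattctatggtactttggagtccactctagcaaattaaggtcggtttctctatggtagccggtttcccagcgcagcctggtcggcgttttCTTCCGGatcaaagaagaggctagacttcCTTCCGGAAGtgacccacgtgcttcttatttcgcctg
Timm23: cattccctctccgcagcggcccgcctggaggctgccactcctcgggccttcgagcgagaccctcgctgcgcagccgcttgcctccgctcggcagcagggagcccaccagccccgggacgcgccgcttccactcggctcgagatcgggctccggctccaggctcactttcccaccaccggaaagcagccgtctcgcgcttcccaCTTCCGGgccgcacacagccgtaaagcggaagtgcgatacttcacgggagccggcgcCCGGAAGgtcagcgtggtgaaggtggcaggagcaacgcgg
Mtx1: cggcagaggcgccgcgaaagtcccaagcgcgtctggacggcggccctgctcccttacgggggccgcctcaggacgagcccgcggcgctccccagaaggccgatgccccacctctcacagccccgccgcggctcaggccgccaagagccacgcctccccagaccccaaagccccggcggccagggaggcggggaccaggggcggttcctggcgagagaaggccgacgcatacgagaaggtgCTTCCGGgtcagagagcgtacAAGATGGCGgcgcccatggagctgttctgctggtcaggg
Tomm34: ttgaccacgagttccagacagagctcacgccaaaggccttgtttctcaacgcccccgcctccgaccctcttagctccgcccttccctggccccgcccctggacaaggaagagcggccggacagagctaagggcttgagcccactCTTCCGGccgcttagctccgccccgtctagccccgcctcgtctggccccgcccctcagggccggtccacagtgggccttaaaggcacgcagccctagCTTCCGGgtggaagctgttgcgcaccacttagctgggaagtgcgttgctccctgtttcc
In Tomm22 and Timm10 the run CTTCCGGAAG holds a match on each strand, and these overlap. Mtx1 carries an ETS match at position -10 and a YY1 match at position 12, counted from the start.

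The ETS motif was present in 14 of the 30 import promoters (46.7%), against 9.93% of all 27025 promoters and 22.5% of the 8195 promoters of genes whose mean reached 100 in both tables. Of the 21 genes called higher in both populations that have a promoter, 9 held it, and of the 9 others 5 did, Tomm34 among them. The NRF1 motif GCGCANGCG was in 5 of 30 promoters (16.7%), against 7.03% of all promoters and 16.8% of the expressed ones, and the YY1 motif in 2 (6.67%), against 1.64% and 4.2%. The E-box CACGTG was found in 4 promoters (13.3%, against 8.09% and 12.4%), CCAAT in 9 (30%, against 41.1% and 43.6%) and the SP1 motif GGGCGG in 19 (63.3%, against 38.2% and 70.8%). Matches are letters in a window and say nothing of binding in these cells.

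Tomm40, which had the smallest adjusted p of all import genes in LSK cells, had none of the NRF1, ETS and YY1 motifs but 5 CCAAT matches, all on the strand of the gene. At least as many were held by 0.311% of all promoters, 0.671% of the expressed ones and 1 of the 30 import promoters. Gene and motif were picked after their values were seen, so these shares test no link to the KO effect. Import promoters as a set held CCAAT less often, at 30% against 43.6% of expressed ones. The Tomm40 window, chr7:19715380-19715679, minus strand, is shown with CCAAT in capitals.
Tomm40: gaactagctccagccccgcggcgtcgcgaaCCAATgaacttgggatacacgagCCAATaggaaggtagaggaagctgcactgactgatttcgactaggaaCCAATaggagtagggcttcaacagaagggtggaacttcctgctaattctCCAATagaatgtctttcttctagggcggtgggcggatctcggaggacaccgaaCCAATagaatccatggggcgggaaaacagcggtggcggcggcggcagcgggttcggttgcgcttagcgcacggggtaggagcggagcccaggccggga
The gene lies on chromosome 7 from 19701313 to 19715438 in mm10.

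Of the TOM complex of the outer membrane, 8 of 9 tested genes were called higher in LSK cells and 6 of 8 in LinNeg cells. After recentring on the 200 highest genes, Tomm7 and Tomm40l were no longer called in LSK cells. Tomm40, the beta-barrel that forms the pore, had derived means of 5933 in KO against 2661 in WT LSK libraries and of 4171 in KO against 1537 in WT LinNeg libraries. Its log2 fold changes were 1.16 (SE 0.06, DESeq2 adjusted p = 1.87e-87) in the authors' deposited table for LSK cells and 1.44 (SE 0.21, adjusted p = 8.16e-11) in that for LinNeg cells. The small subunit Tomm5 moved by similar amounts, at 1652 in KO against 742 in WT LSK libraries and 1781 in KO against 724 in WT LinNeg libraries (log2 fold changes 1.15 and 1.30). Tomm22, the central receptor that holds the pores together, had 3053 in KO against 1478 in WT LSK libraries and 3070 in KO against 1722 in WT LinNeg libraries. Its log2 fold changes were 1.05 (SE 0.08) and 0.83 (SE 0.18) in the authors' deposited tables for LSK and LinNeg cells.

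The receptors that first meet precursors were called higher in both populations. Tomm20, the receptor for presequences, had 4420 in KO against 2844 in WT LSK libraries and 3700 in KO against 2292 in WT LinNeg libraries. Tomm70a, the receptor for carriers and other hydrophobic precursors, had 9505 in KO against 5945 in WT LSK libraries and 6590 in KO against 3490 in WT LinNeg libraries. Their log2 fold changes were 0.64 and 0.68 in LSK cells and 0.69 and 0.92 in LinNeg cells, each called. Of the remaining small subunits, Tomm7 was called only in LSK cells, at 766 in KO against 601 in WT libraries, with a log2 fold change of 0.35 (SE 0.10, adjusted p = 0.000794 in the authors' deposited table), and this change became -0.0069 when the table was recentred on its 200 highest genes. In LinNeg cells Tomm7 stood at 867 in KO against 841 in WT libraries (adjusted p = 0.923). Tomm6, another small subunit, is described with the differences between populations.

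Tomm40l, the paralog of the pore gene, had smaller fold changes. Its derived means were 1331 in KO against 1071 in WT LSK libraries and 1027 in KO against 743 in WT LinNeg libraries. Its log2 fold changes of 0.31 and 0.47 were called in both tables, and that in LSK cells became -0.043 on recentring on the 200 highest genes. The call of Tomm40l in LinNeg cells was lost on recentring on the median of all genes. The ratio of Tomm40 to Tomm40l derived means was 4.46 in KO against 2.49 in WT LSK libraries, and 4.06 in KO against 2.07 in WT LinNeg libraries. Both genes were measured in the same libraries, and this difference was not tested. Tomm34, a cytosolic cochaperone named like the TOM subunits but not part of the pore, was at 1847 in KO against 2025 in WT LSK libraries and at 2122 in KO against 2379 in WT LinNeg libraries. Neither difference was called (adjusted p = 0.0814 and 0.373 in the authors' deposited tables), and it was called lower in LSK cells when the table was recentred on the median of all genes.

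**Figure D2:**
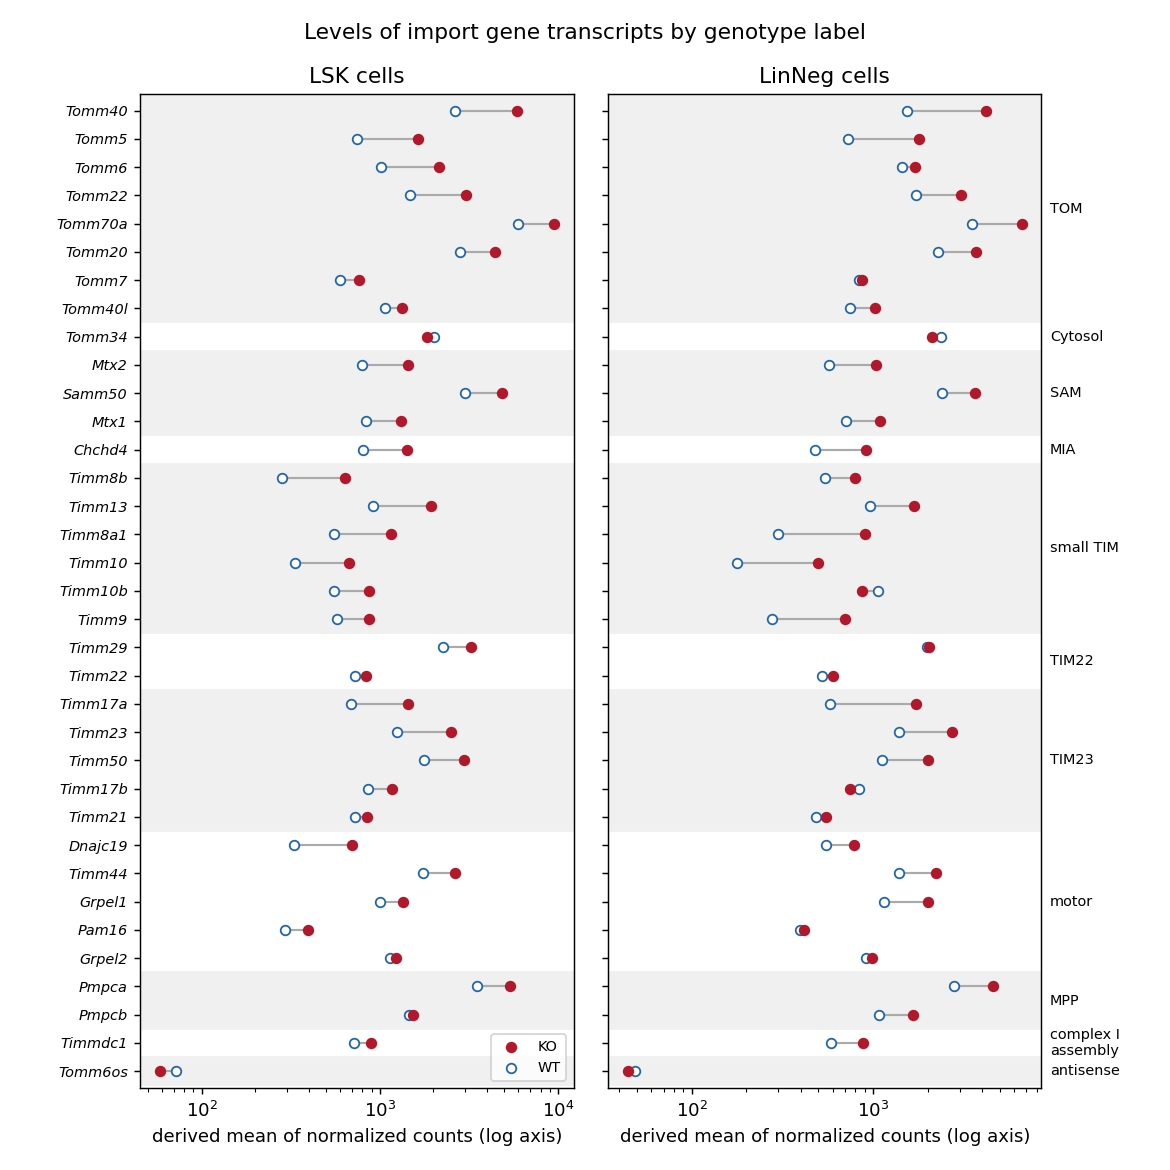
Derived mean normalized counts of each import gene in KO and WT libraries (logarithmic axis), in LSK and LinNeg cells, with KO and WT of a gene joined by a line. The KO point lies right of the WT point for most genes, and left of it in both populations for Tomm34 and the antisense RNA Tomm6os. The values carry no error bars because they derive from the authors' means.

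All 3 genes of SAM, which inserts beta-barrel proteins into the outer membrane, were called higher in both populations. Samm50, the core of the complex, had 4892 in KO against 3028 in WT LSK libraries and 3625 in KO against 2393 in WT LinNeg libraries, with log2 fold changes of 0.69 (SE 0.06) and 0.60 (SE 0.19) in the authors' deposited tables. Its metaxin partners were alike. Mtx2 had log2 fold changes of 0.84 in LSK cells and 0.87 in LinNeg cells, and Mtx1 had 0.64 and 0.62, the call of Mtx1 in LinNeg cells being lost on recentring on the median of all genes. Chchd4, the oxidoreductase that traps small cysteine-rich proteins in the intermembrane space, was at 1429 in KO against 808 in WT LSK libraries and at 910 in KO against 479 in WT LinNeg libraries. Its log2 fold changes were 0.82 (SE 0.09, adjusted p = 2.04e-18) and 0.92 (SE 0.25, adjusted p = 0.000794) in the authors' deposited tables.

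The small TIM chaperones, which escort hydrophobic proteins across the intermembrane space, held the largest fold changes. All 6 tested genes were called higher in LSK cells, and 4 of 7 in LinNeg cells. Timm8a1 had 1154 in KO against 552 in WT LSK libraries and 903 in KO against 301 in WT LinNeg libraries. Its log2 fold changes were 1.06 (SE 0.10) and 1.59 (SE 0.27), the larger being the highest of any called import gene in the LinNeg table. Its partner Timm13 had 1933 in KO against 916 in WT LSK libraries and 1687 in KO against 961 in WT LinNeg libraries (log2 fold changes 1.08 and 0.81). Timm8a1 lies on chromosome X, where Xist was also higher in KO libraries. The part of the X chromosome in this result was not tested.

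Timm9 and Timm10, which join into the chaperone ring for carrier proteins, were both called higher in both populations. Timm10 had 674 in KO against 336 in WT LSK libraries and 497 in KO against 179 in WT LinNeg libraries, with log2 fold changes of 1.0 (SE 0.12) and 1.48 (SE 0.30) in the authors' deposited tables. Timm9 rose by 0.59 (SE 0.10) in LSK cells and by 1.33 (SE 0.23) in LinNeg cells. The ratio of Timm10 to Timm9 derived means was 0.776 in KO against 0.582 in WT LSK libraries, and 0.711 in KO against 0.642 in WT LinNeg libraries. Timm8b, the paralog of Timm8a1, had the highest log2 fold change of the import genes in the LSK table, 1.17 (SE 0.13, adjusted p = 3.11e-19), with 637 in KO against 283 in WT libraries. In LinNeg cells it stood at 793 in KO against 545 in WT libraries, which was not called (adjusted p = 0.0975 in the authors' deposited table). Timm8a2, a further paralog, had means of 0.16 normalized counts in the LSK table and 3.48 in the LinNeg table, and Tomm20l, a paralog of Tomm20, had 0.87 and 0.40, too low to compare.

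For the TIM22 complex, which inserts the carriers, 1 of 2 genes was called higher in LSK cells and neither in LinNeg cells. Timm22, its channel, had 841 in KO against 725 in WT LSK libraries and 601 in KO against 523 in WT LinNeg libraries. Neither was called, with log2 fold changes of 0.21 (SE 0.11, adjusted p = 0.0854) and 0.20 (SE 0.21, adjusted p = 0.476) in the authors' deposited tables, and that in LSK cells became -0.14 on recentring on the 200 highest genes. Timm29, the other subunit of this complex among these genes, was called higher in LSK cells only, at 3262 in KO against 2256 in WT libraries, against 2025 in KO and 1974 in WT LinNeg libraries.

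Of the TIM23 complex, 4 of 5 genes were called higher in LSK cells and 3 of 5 in LinNeg cells. Timm23, the channel itself, had 2505 in KO against 1243 in WT LSK libraries and 2738 in KO against 1393 in WT LinNeg libraries, with log2 fold changes of 1.01 (SE 0.07) and 0.98 (SE 0.19) in the authors' deposited tables. Timm50, the receptor that keeps the channel closed until a presequence arrives, had 2970 in KO against 1768 in WT LSK libraries and 2002 in KO against 1118 in WT LinNeg libraries. Timm21, which links TIM23 to TOM and to the respiratory chain, was not called in either (log2 fold changes 0.22 and 0.18, adjusted p = 0.0821 and 0.511 in the authors' deposited tables), and that in LSK cells became -0.13 on recentring on the 200 highest genes.

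The Timm17 paralogs, alternative subunits of the TIM23 complex, had unlike fold changes. Timm17a, on chromosome 1 from 135295213 to 135313778 in mm10, had 1443 in KO against 693 in WT LSK libraries and 1716 in KO against 582 in WT LinNeg libraries. Its log2 fold changes were 1.06 (SE 0.09, adjusted p = 6.07e-29) and 1.56 (SE 0.21, adjusted p = 1.19e-12) in the authors' deposited tables. Timm17b, on chromosome X from 7899357 to 7908351, had 1173 in KO against 860 in WT LSK libraries and 749 in KO against 838 in WT LinNeg libraries. It was called higher in LSK cells (log2 fold change 0.45, SE 0.10), where recentring on the 200 highest genes ended the call, and not called in LinNeg cells (-0.16, SE 0.21). The ratio of Timm17a to Timm17b derived means was 1.23 in KO against 0.806 in WT LSK libraries and 2.29 in KO against 0.694 in WT LinNeg libraries. In both populations the balance between the paralogs lay further towards Timm17a in KO libraries, and this difference was not tested because both genes come from the same libraries.

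Among the genes of the import motor, which pulls proteins through TIM23 into the matrix, 4 of 5 were called higher in LSK cells and 3 of 5 in LinNeg cells. Timm44, the anchor of the motor on the channel, had 2640 in KO against 1752 in WT LSK libraries and 2211 in KO against 1387 in WT LinNeg libraries (log2 fold changes 0.59 and 0.67, both called). Dnajc19, the J-protein that stimulates the motor's Hsp70, had 700 in KO against 330 in WT LSK libraries and 782 in KO against 547 in WT LinNeg libraries. The call of Dnajc19 in LinNeg cells (0.52, SE 0.20, adjusted p = 0.0261 in the authors' deposited table) was lost on recentring on the median of all genes. Its inhibitory partner Pam16 was called only in LSK cells, at 395 in KO against 296 in WT libraries, and recentring on the 200 highest genes ended that call. In LinNeg cells Pam16 was at 416 in KO against 396 in WT libraries. The nucleotide exchange factor Grpel1 was called in both (log2 fold changes 0.44 and 0.81), the call in LSK cells being lost on recentring on the 200 highest genes. Its paralog Grpel2 was called in neither, with 0.13 (SE 0.08) in LSK and 0.11 (SE 0.17) in LinNeg cells, of which the first became -0.23 on recentring on the 200 highest genes and the second -0.048 on recentring on the median of all genes.

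The matrix processing peptidase, which removes presequences, is a pair of subunits, and these moved together in LinNeg cells. Pmpca, the subunit that recognises the substrate, had 5427 in KO against 3498 in WT LSK libraries and 4584 in KO against 2803 in WT LinNeg libraries, and was called higher in both (log2 fold changes 0.63 and 0.71). Pmpcb, the catalytic subunit, had 1542 in KO against 1460 in WT LSK libraries (0.08, SE 0.10, adjusted p = 0.486, and -0.28 on recentring on the 200 highest genes) and 1661 in KO against 1084 in WT LinNeg libraries (0.62, SE 0.20, adjusted p = 0.00608), both from the authors' deposited tables. The ratio of Pmpca to Pmpcb derived means was 3.52 in KO against 2.40 in WT LSK libraries, and 2.76 in KO against 2.59 in WT LinNeg libraries. Timmdc1, which shares the Timm name but acts in the assembly of respiratory complex I, was called higher in both (0.32 and 0.57), and each call was lost under 1 of the recentrings. Tomm6os was not called in either table.

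The genes were compared between populations through their KO effects. Of the import genes, 22 were called higher in both populations, where 14.1% of all genes tested in both tables were. Among these 22, Grpel1, Dnajc19, Mtx1, Timmdc1 and Tomm40l lost a call under a recentring. Another 7 were called in LSK cells alone (Pam16, Timm10b, Timm17b, Timm29, Timm8b, Tomm6 and Tomm7) and Pmpcb in LinNeg cells alone. Across the 34 expressed genes the log2 fold changes of LSK and LinNeg cells had a Pearson r of 0.63 and a Spearman rho of 0.58. These describe genes and not replicates, and the comparisons share no library. The difference itself, LSK effect minus LinNeg effect, was tested per gene with a two-sided normal test on the deposited estimates and SEs and Benjamini-Hochberg adjustment over 17397 genes. It was called for 5 of the 37 import genes (13.5%), against 28.3% of all genes tested, of which 15.5% were higher in LSK cells and 12.8% lower. The Y-linked Ddx3y went with the label in LSK cells and was not called in LinNeg cells. The part of this unlike sex pattern in the differences was not tested.

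Timm10b, a small TIM chaperone that docks the carrier ring on TIM22, differed most among the 5. It had 875 in KO against 555 in WT LSK libraries, where it was called higher (log2 fold change 0.66, SE 0.09), and 874 in KO against 1067 in WT LinNeg libraries (-0.29, SE 0.19, not called). The difference was 0.95 (SE 0.21, adjusted p = 5.84e-05, Benjamini-Hochberg). Tomm6 had 2144 in KO against 1015 in WT LSK libraries (1.08, SE 0.08) and 1706 in KO against 1441 in WT LinNeg libraries (0.24, SE 0.22, not called), a difference of 0.84 (SE 0.24, adjusted p = 0.00228). Timm17b differed by 0.61 (SE 0.23, adjusted p = 0.0307) and Timm29 by 0.49 (SE 0.18, adjusted p = 0.0206), each with the larger value in LSK cells. Timm9 went the other way, with 868 in KO against 577 in WT LSK libraries and 699 in KO against 278 in WT LinNeg libraries, a difference of -0.74 (SE 0.25, adjusted p = 0.0158). When both tables were recentred on their 200 highest genes, only Timm10b and Timm9 of these kept the call, and 16 genes were called in all. Timm8b, Pmpcb, Dnajc19 and Timm17a, whose calls or sizes also looked unlike, did not pass the adjusted threshold (adjusted p = 0.108, 0.0506, 0.0588 and 0.0865). Timm8b and Dnajc19 passed it when both tables were recentred on the median of all genes. Pmpcb and Dnajc19 passed it when only genes whose mean reached 100 were tested. With 95% intervals of the difference from 0.04 to 1.22 for Timm8b and from -0.97 to -0.11 for Pmpcb, a missed threshold does not show like effects in the populations, and the 5 calls do not count all differences of such size.

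**Figure D3:**
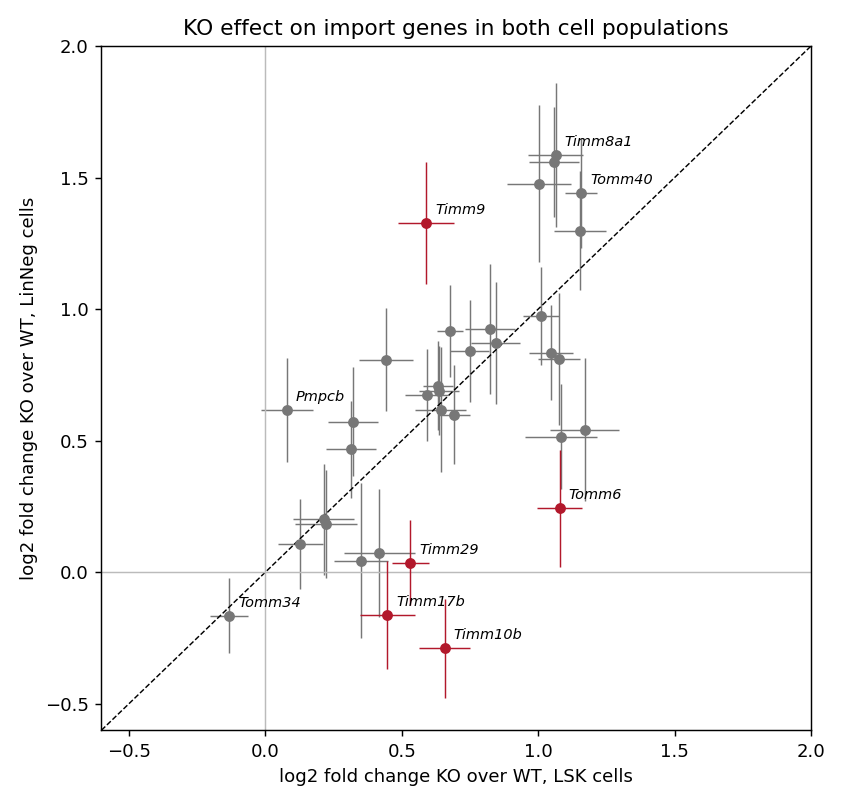
Log2 fold change of KO over WT in LSK cells (horizontal axis) against LinNeg cells (vertical axis) for the 34 expressed import genes, with the diagonal of equal effects. Bars are 1 SE to each side. Coloured points are the 5 genes whose effects differed between populations, of which Timm9 lies above the diagonal and Timm10b, Tomm6, Timm17b and Timm29 below it.

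The import genes are spread over 18 chromosomes. For 11 of the 34 expressed genes the start of a gene on the opposite strand lies within 1000 bases, and some of these neighbours are named after their values were seen. In LSK cells 3 of the 11 neighbours were called higher and 5 lower, and in LinNeg cells 2 were called higher and 2 lower. Over all tested genes the shares were 32.4% higher and 29.2% lower in LSK cells and 22.1% higher and 19.3% lower in LinNeg cells. Timm8b starts 98 bases from Sdhd, a subunit of respiratory complex II, and Sdhd was called higher in both tables (log2 fold changes 0.98 and 0.67). Timm23 starts 51 bases from Parg, which degrades poly(ADP-ribose) and was not called (-0.06 and -0.23). Chchd4 starts 157 bases from Tmem43, a membrane protein gene called lower in both tables (-0.36 and -1.35). Exons of 12 of the 34 genes overlap another gene, Timm10b, Timm9, Timm29 and Tomm6 among them, and the sources used here do not say whether reads were counted by strand, so their values are less certain. For Timm9 the overlapping gene is Tomm20l, with means of only 0.87 in the LSK table and 0.40 in the LinNeg table. Of the 22 genes without such an overlap, 17 were called higher in LSK cells and 15 in LinNeg cells, and none lower.

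Because U2af1 acts on introns, the genes were also set out by intron number, taken from the principal GENCODE transcript. Import genes had a median of 5 introns, between 1 and 14, against 7 over all tested genes. In LSK cells all 10 import genes with 0 to 2 introns were called higher, with a median log2 fold change of 1.03, and 724 of all 3116 tested genes in that range were, with a median of -0.04. With 3 to 6 introns 10 of 14 import genes were called higher (median 0.45), and 1581 of all 4559 genes (median 0.10). With 7 or more introns the numbers were 9 of 10 import genes (median 0.66) and 3007 of all 8598 genes (median 0.04). In LinNeg cells 5 of 10, 8 of 14 and 10 of 10 import genes were called higher in these ranges, with medians of 0.68, 0.54 and 0.69, and 507 of 3219, 996 of 4773 and 2259 of 8904 of all genes, with medians of 0.20, 0.16 and 0.15. Across the 34 genes the Spearman rho between intron number and log2 fold change was -0.28 in LSK cells and 0.07 in LinNeg cells, against 0.000283 and -0.01 over all tested genes. Such gene-level counts do not show how the transcripts were spliced.

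Over all tested genes, 32.4% were called higher and 29.2% lower in LSK cells, and 22.1% and 19.3% in LinNeg cells. Related mitochondrial lists, each given below with its number of tested genes, together held 63 genes called higher and 15 lower in LSK cells. In LinNeg cells they held 40 called higher and 8 lower. The LSK counts became 36 higher and 36 lower after recentring on the 200 highest genes. Import partners outside the name rule had 9 of 15 called higher and 3 lower in LSK cells, and 6 higher and 1 lower in LinNeg cells, with medians of 0.55 and 0.47. Hspa9, the matrix Hsp70 that drives the motor, had log2 fold changes of 0.86 (SE 0.05) and 1.38 (SE 0.20) in the authors' deposited tables, and Gfer, the oxidase that recharges the Chchd4 product, had 0.70 and 1.38. Dnajc11, an outer membrane J-protein, had 0.95 and 1.15. The outer membrane insertases Mtch2 and Mtch1 moved apart, Mtch2 being called higher (0.66 and 0.57) and Mtch1 lower (-0.21 and -0.70) in both tables.

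Genes of MICOS and inner membrane shaping were called higher in 9 of 14 cases in LSK cells, with none lower, and in 8 of 14 in LinNeg cells, with 1 lower (medians 0.70 and 0.50). Among those called higher in both were the prohibitins Phb2 (log2 fold changes 1.28 and 1.38) and Phb (1.05 and 1.17), scaffold proteins of the inner membrane. Chchd3, a MICOS subunit and known substrate of the Chchd4 pathway, had 0.92 and 0.68, and Chchd10, a small intermembrane-space protein, 1.77 and 2.40. Outer membrane channels and fusion and fission genes had 9 of 12 called higher and none lower in LSK cells, and 4 higher and 1 lower in LinNeg cells. Vdac2 and Vdac1, the metabolite pores that SAM inserts, had 0.86 and 0.64 in LSK cells and 0.49 and 1.05 in LinNeg cells. The fusion gene Mfn1 had 0.82 and 0.79. Fis1, a fission adaptor, was called higher in LSK cells (0.32, and -0.039 on recentring on the 200 highest genes) and lower in LinNeg cells (-0.78).

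The carriers that enter through TIM22 had lower medians as a list, with 15 of 28 called higher and 4 lower in LSK cells and 11 higher and 1 lower in LinNeg cells (medians 0.23 and 0.21). The largest rise in LSK cells among those named was that of Slc25a38, the glycine carrier of haem synthesis, with 2273 in KO against 553 in WT LSK libraries and 1900 in KO against 702 in WT LinNeg libraries (log2 fold changes 2.04 and 1.44). Slc25a37, the iron importer mitoferrin of red-cell precursors, had 3216 in KO against 2913 in WT LSK libraries (0.14, not called, and -0.21 on recentring on the 200 highest genes) and 7424 in KO against 1891 in WT LinNeg libraries (1.97, called). Slc25a5, an ADP/ATP carrier, had 0.80 and 0.60, and Slc25a44, a carrier of branched-chain amino acids, 1.18 and 0.66. Slc25a15, the ornithine carrier, was called only in LinNeg cells (-0.03 in LSK cells and 1.42 in LinNeg cells). The erythroid markers described above were higher in KO libraries of both populations, and their part in these carrier results was not tested.

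Stress and mitophagy genes had 9 of 16 called higher and 5 lower in LSK cells, and 6 higher and 2 lower in LinNeg cells. Those named here, picked for the smallest adjusted p in each table, were proteases called higher in both. They were Htra2 of the intermembrane space (1.26 and 1.39), Afg3l2 of the inner membrane (1.09 and 0.92), and Lonp1 (0.92 and 0.95) and Clpp (0.997 and 1.12) of the matrix. They do not stand for the whole list. Regulators of mitochondrial biogenesis had 12 of 19 called higher and 3 lower in LSK cells, and 5 higher and 2 lower in LinNeg cells. Gabpb1, which encodes the partner subunit of the ETS factor GABP, was called lower in both, at 1790 in KO against 3527 in WT LSK libraries and at 1223 in KO against 1843 in WT LinNeg libraries (log2 fold changes -0.98 and -0.59). Pprc1, a coactivator of respiratory gene transcription, was called higher in both (0.58 and 1.08). Polg, the mitochondrial DNA polymerase, was called higher in LSK cells (0.55) and not called in LinNeg cells (-0.13), and Twnk, the mitochondrial DNA helicase, had 0.18, called, and 1.22, called, the first becoming -0.18 on recentring on the 200 highest genes.

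**Figure D4:**
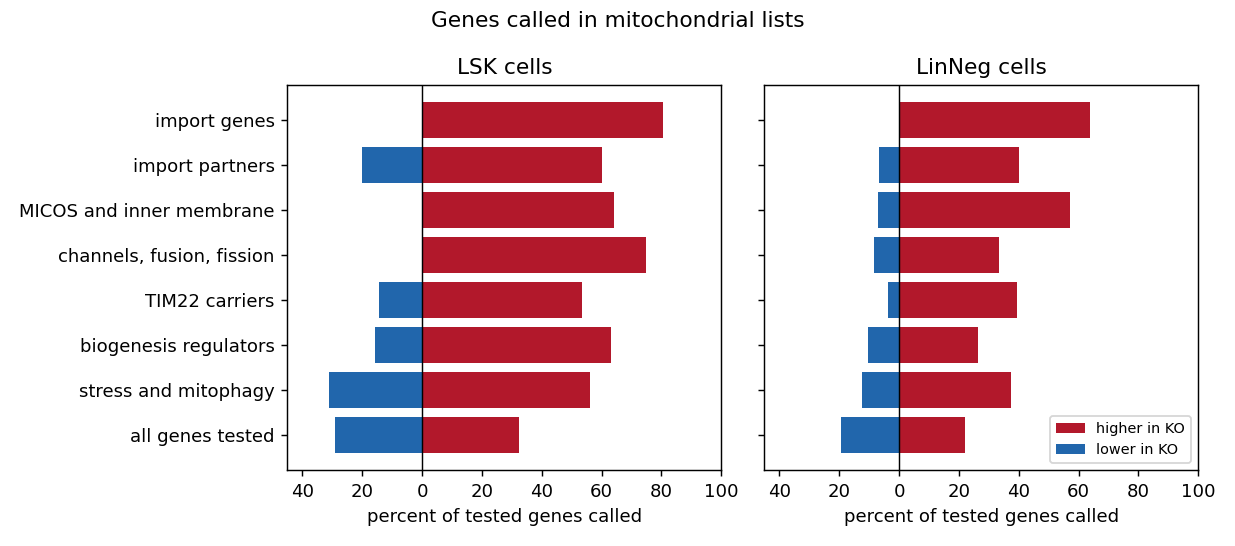
Percentage of tested genes called higher (to the right) and lower (to the left) in KO libraries for the import genes, the related mitochondrial lists and all tested genes, in LSK and LinNeg cells. Import genes have calls to the right only, with 29 of 36 in LSK cells and 23 of 36 in LinNeg cells.

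Levels of different genes were compared only per length, as derived mean per kilobase of the principal transcript. In WT LSK libraries the highest were Tomm40 (1617 per kilobase), Tomm6 (1355), Timm50 (1167) and Tomm5 (1162), and in KO LSK libraries Tomm40 stood at 3605 and Tomm6 at 2862. In WT LinNeg libraries Tomm6 (1925), Timm23 (1187), Tomm5 (1134) and Tomm22 (1097) led. Of the TOM genes, the small subunits Tomm6 and Tomm5 were thus among the 4 highest in WT libraries of both populations, while Tomm40 ranked 7 in WT LinNeg libraries at 934 per kilobase. The transcript lengths in use in these cells were not measured, and no error can be given for these levels.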

How the data were processed

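RNA from 12 libraries (LSK KO, LSK WT, LinNeg KO, LinNeg WT, 3 each) was compared by the authors as KO over WT within each population. Per the submitters' processing notes, the genome build was mm10 and the tools named were HISAT2, SAMtools 1.10, StringTie and DESeq2. The sources used here do not give the counting program, its strand setting or the annotation. Per the file headers, each of the 2 deposited tables gives a mean of normalized counts per gene, a linear signal made by the authors. Per the file headers it also gives a log2 fold change and SE, both log2 values from the authors. The deposited Wald statistic is a score, and the deposited p-value comes raw and adjusted. Values per library were not used here, so depth per library is unknown. The row for reads that fell in no feature held 26.4% of all summed means in the LSK table and 38.0% in the LinNeg table. Of 24542 rows, 5 that name no gene and 4 with repeated symbols were left out. In LSK cells 16482 genes carried an adjusted p, and in LinNeg cells 17108.

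The deposited log2 fold changes are rounded and were recomputed as statistic times standard error. Calls use the authors' adjusted p (DESeq2, Benjamini-Hochberg) under 0.05. The tables were normalized separately, so effects and not levels are compared between them; the difference of effects was tested per gene with a two-sided normal test and Benjamini-Hochberg adjustment. Only the test of the difference was tried on simulated data. The alternatives were no filter on low means, a mean of at least 100, recentring on the median of all genes or on the 200 genes with the highest means, an adjusted p under 0.01 and a change of at least 0.25. Coordinates, introns and overlaps come from GENCODE M21 (mm10), in which 98.2% of symbols were found, and promoters from RefSeq (GRCm38.p6). Named are every import gene, U2af1, up to 3 genes of each related list with the smallest adjusted p in each table, markers of each cell type with the largest means, and neighbouring genes named after their values were seen. The genes, lists and rules were chosen with earlier results of these data known. Scripts used scipy 1.17.1 and pandas 2.3.3 under Python 3.11.15, with figures from matplotlib 3.10.9.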

Additional observations from a re-analysis of the deposited data

Results flagged for a closer look

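For 5 import genes the KO effect differed between LSK and LinNeg cells by a test of the difference itself. On the log2 scale, LSK effect minus LinNeg effect was 0.95 for Timm10b, 0.84 for Tomm6, 0.61 for Timm17b, 0.49 for Timm29 and -0.74 for Timm9. Timm10b, Tomm6, Timm29 and Timm9 overlap exons of another gene, which for Timm9 is the barely detected Tomm20l, and Timm17b is X-linked. The part of these features in the differences was not tested.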

How the results depend on the processing

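Without a filter on low means the counts of called import genes were as reported. In LSK cells the number called higher was 29 except for 23 after recentring on the 200 genes with the highest means and 23 for a change of at least 0.25. The number called lower, 0 as reported, was 1 after recentring on the median of all genes and 4 after recentring on the 200 highest. In LinNeg cells 23 called higher became 19 after recentring on the median or at an adjusted p under 0.01 and 15 for a change of at least 0.25, and 0 called lower became 1 after recentring on the median. The 5 called differences became 7 after recentring on the median of all genes (Dnajc19 and Timm8b gained the call), 2 at an adjusted p under 0.01 (2 higher in LSK, 0 lower), 16 after recentring on the 200 highest (1 higher, 15 lower) and 7 when only genes whose mean reached 100 were tested (2 lower). Over the related lists, the 63 called higher in LSK cells became 36 after recentring on the 200 highest and 39 for a change of at least 0.25, and the 15 lower became 36 and 8. In LinNeg cells the 40 called higher became 24 for a change of at least 0.25, and the 8 lower became 5 under that setting and 13 after recentring on the median. Recentring LSK cells on the 200 highest turned the log2 fold changes of Grpel2 to -0.23, Pmpcb to -0.28, Timm21 to -0.13, Timm22 to -0.14, Timmdc1 to -0.034, Tomm40l to -0.043, Tomm7 to -0.0069, Fis1 to -0.039, Slc25a37 to -0.21 and Twnk to -0.18. Recentring LinNeg cells on the median turned Grpel2 to -0.048, Pam16 to -0.083, Timm29 to -0.12 and Tomm7 to -0.11. These shifts follow from the recentring itself; the cause of the other changes was not tested. Of the values for single genes, 718 kept their direction and side of the threshold, 45 lost the call, 11 gained one and 14 changed sign. No paired analysis was possible because the tables hold no values per library; leaving out each replicate was not run for the same reason. Depth per library is unknown, and wider SEs limit the LinNeg comparison.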
